A study of Mus musculus with 4 samples.

Results

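The GC-rich entries mmu-miR-762, mmu-miR-1894-3p, mmu-miR-1895 and mmu-miR-715 (below without the prefix) are 4 of the 700 mouse miRNA probes of a 2-colour array, matched by their exact probe names, and all 4 were found. They were chosen by their GC-rich sequences with their measured ratios between the 2 stages already known, so those ratios are given as descriptions with no test. The samples were HC11 cells, a clonal line of mouse mammary epithelium that makes milk proteins when given lactogenic hormones. Differentiated cells (2 samples) spent 48 h in 2% serum with epidermal growth factor withdrawn, followed by 72 h with 100 nM dexamethasone and 1 µg/mL ovine prolactin. Proliferating cells (2 samples) grew for 48 h in medium holding 10% serum, insulin and epidermal growth factor. Each array carried a differentiated and a proliferating sample in opposite dyes, and the dyes were swapped on the other array. Nothing in the labels tells if each stage's 2 samples were separate cultures, so the spread between them may be technical, and it also holds each probe's dye effect. Precision is limited by there being only 2 arrays.

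A miRNA is a short RNA cut from a hairpin precursor, first by Drosha and then by Dicer, and it finds its target mRNAs mainly through its seed, bases 2 to 8. An array probe reads any labelled small RNA that pairs with it, whether or not a hairpin was its source. GC-rich duplexes are more stable than AU-rich ones, so such a probe can also hold partly matched RNA.

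The sequences the 4 probes were designed to capture are shown because the grouping rests on them, 5′ to 3′ with the seed in capitals.
miR-762: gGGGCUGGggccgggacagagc
miR-1894-3p: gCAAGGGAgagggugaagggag
miR-1895: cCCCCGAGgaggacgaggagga
miR-715: cUCCGUGCacacccccgcgug
No 2 of the 4 shared a seed, and no other target on the array had the seed of any of them. The targets differed from each other by 11 to 16 edits. The nearest other target on the array was 7 edits away for miR-1894-3p (miR-483), 8 for miR-762 (miR-1962) and miR-715 (miR-1905), and 9 for miR-1895 (miR-1896 among others).

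The GC share was 81.8% for miR-762, 76.2% for miR-715, 72.7% for miR-1895 and 63.6% for miR-1894-3p, against a median of 47.7% over the 700 targets. Only 4 targets, miR-762 included, were at least as GC-rich as miR-762, whereas 88 were at least as GC-rich as miR-1894-3p. The base behind that share differed. Of their 22 bases, miR-762 and miR-1894-3p each held 13 G, a G share of 59.1% that 5 of the 700 targets reached, and each had 3 separate runs of at least 3 G. miR-1895 had 10 G and 6 C in 22 bases with no run of 3 G, and its second part repeated GAGGA. miR-715 was the C-rich one, with 11 C and 5 G in 21 bases, a C share of 52.4% that 7 targets reached. The letters GGG, read on the target strand, stood in 175 of the 700 targets (25.0%).

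For 3 of the 4, RefSeq (GRCm38.p6) held a mature sequence identical to the array's target. They are miR-762 at chr7:127708534-127708555 on the plus strand, miR-1894-3p at chr17:35917938-35917959 on the plus strand and miR-1895 at chr3:134240515-134240536 on the minus strand. These positions come from matching the sequences, since the array files carry none. The hairpins are shown, with the mature part in capitals, because the shape of the precursor bears on what each entry is.
Mir762: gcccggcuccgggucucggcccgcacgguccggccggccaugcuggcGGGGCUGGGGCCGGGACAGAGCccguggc
Mir1894: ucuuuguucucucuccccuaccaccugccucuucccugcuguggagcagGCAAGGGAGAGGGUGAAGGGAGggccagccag
Mir1895: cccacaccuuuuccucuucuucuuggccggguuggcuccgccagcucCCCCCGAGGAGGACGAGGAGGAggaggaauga
Mir762 lay within the span of Bcl7c, which encodes a subunit of the BAF chromatin remodelling complex, on the opposite strand and 204 bases into the gene from its nearest annotated start. Mir1895 lay within the span of Cxxc4, an inhibitor of Wnt signalling, also on the opposite strand, 4010 bases from the start. Mir1894 lay within Ppp1r10, which encodes a nuclear regulator of protein phosphatase 1, on the same strand, 693 bases from the nearest start. Whether these positions are exonic or intronic was not analysed here, since the gene table at hand lists no exons. The predicted fold (RNAfold) had a free energy per base of -0.72 kcal/mol for Mir762, -0.54 for Mir1895 and -0.44 for Mir1894, against a median of -0.41 over 1005 RefSeq mouse hairpins and -0.47 over the 139 with a GC share of at least 61.7%, that of Mir1894. In that fold 19 of the 22 mature bases of miR-762 and of miR-1895 were paired (86.4%) and 17 of miR-1894-3p (77.3%), beside a median of 81.0% over 1635 mature sequences. A predicted pairing of this kind describes the sequence and does not show processing by Drosha or Dicer.

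The 4 samples detected between 138 and 203 of the 700 probes, 187 and 165 in the differentiated samples and 203 and 138 in the proliferating ones. Empty spots read 39.1 and 287.8 intensity units on average in differentiated replicates 1 and 2, against 152.5 and 86.2 in proliferating replicates 1 and 2, so the same signal counts for more in some channels than in others. Of 7 epithelial marker miRNAs, 6 were detected in both differentiated and 4 in both proliferating samples, and miR-141 was undetected. Their summed normalised signal was 22827 and 21110.3 units in the differentiated samples, against 8878.5 and 7038 units in the proliferating samples. The log2 ratios (differentiated over proliferating) behind this sum were uneven. They were 3.65 ± 0.16 for miR-200a, 2.67 ± 0.30 for miR-200b and 1.43 ± 0.26 for miR-429. For miR-203 and miR-205 they were 0.49 ± 0.003 and 0.20 ± 0.52 (SD, n = 2 arrays each), and miR-200c was undetected in proliferating cells. Of 6 mesenchymal markers, 3 were detected in both differentiated samples and 1 in both proliferating ones. Their summed normalised signals were 1272 and 2346 units in the differentiated samples, against 1439 and 1380 units in the proliferating samples. miR-199a-3p, miR-199a-5p and miR-214 were undetected. Of 4 muscle markers miR-206 alone was detected anywhere, in both proliferating samples and 1 differentiated one, with a log2 ratio of -1.02 ± 0.26 (SD, n = 2 arrays). Of 6 blood markers miR-486 alone was detected anywhere, and of 2 endothelial markers none was. The part of other cells in the ratios below was not tested. Spike control probes had a mean log2 ratio of -1.40 (differentiated over proliferating) and 5S rRNA probes one of -0.81. The ratios that follow were centred by loess on the miRNA probes, and the tested ones had a median of 0.11. Centred on the spikes instead, that median was 1.51. In RNA from whole cultures, fewer cells making a miRNA and less of it per cell cannot be told apart.

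miR-762 was detected in all 4 samples and was several times brighter in the differentiated cells. The mean of its 5 spots over local background was 3136 ± 710 and 14341 ± 1048 intensity units in differentiated replicates 1 and 2, against 547 ± 64.5 and 584 ± 82.6 in proliferating replicates 1 and 2 (SD, 5 spots each). Both differentiated samples lay above both proliferating ones, and so did every single spot, the dimmest differentiated spot reading 2611 and the brightest proliferating one 681. How many other probes kept the stages apart in this way was not counted. The 2 differentiated samples themselves lay far apart, with the brighter one in Cy3. Before any normalisation the differentiated signal was 5.73-fold the proliferating one on array 1 and 24.6-fold on array 2. Loess normalisation within the arrays drew these together, to log2 ratios of 2.25 and 3.03, with a mean of 2.64 ± 0.56 (SD, n = 2 arrays), or 6.24-fold. On the normalised log2 scale the samples stood at 11.94 and 12.66 in differentiated cells and at 9.69 and 9.62 in proliferating cells. The 2 proliferating samples differed by far less than the stages did.

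miR-1894-3p was detected in both differentiated samples and in neither proliferating one. Its signal over background was 204 ± 56.2 and 1387 ± 267 units in differentiated replicates 1 and 2, against 9.55 ± 4.16 and 13.3 ± 3.96 units in proliferating replicates 1 and 2 (SD, 5 spots each), where the level needed for detection was 13.2 and 53.7. In the proliferating cells 1 spot of 10 passed that level. All 10 differentiated spots passed theirs. The proliferating level is therefore known only as a limit. By a bound set on the normalised signals and averaged over the 2 arrays, miR-1894-3p was at least 4.59-fold higher in differentiated cells. This bound holds for the processing reported and moved under others. In each proliferating sample it takes the higher of the dimmest detected probe's signal and the probe's own, which on array 1 was its own, so there the bound equals the fitted log2 ratio of 2.11. On array 2 the bound was 2.29. The opposite arm of the same hairpin, miR-1894-5p, went undetected in both differentiated samples, with 0.87 and 41.8 units, and was detected in proliferating replicate 1 at 18.7 units but not in replicate 2 at 14.0 units. The 2 arms thus did not share a pattern of detection. The levels needed differed by channel, however. The 41.8 units of miR-1894-5p fell under a level of 156.5, while its 18.7 units passed one of 13.2.

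miR-1895 was detected in all 5 spots of every sample, with no steady difference between the stages. It had 169 ± 22.4 and 398 ± 64.0 units in differentiated replicates 1 and 2, against 119.9 ± 4.50 and 143 ± 19.3 units in proliferating replicates 1 and 2 (SD, 5 spots each). Before normalisation both differentiated samples thus lay above both proliferating ones, 1.41-fold on array 1 and 2.79-fold on array 2. Normalised, the log2 values were 8.53 and 7.72 in differentiated and 7.90 and 7.84 in proliferating cells, and the groups overlapped. The log2 ratio was 0.62 on array 1 and -0.12 on array 2, with a mean of 0.25 ± 0.53 (SD, n = 2 arrays). The arrays thus disagreed in sign, and the mean was smaller than the spread between them.

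miR-715 sat at the edge of detection. It had 4.86 ± 1.84 and 259 ± 72.6 units in differentiated replicates 1 and 2, against 15.3 ± 7.14 and 58.9 ± 27.8 units in proliferating replicates 1 and 2 (SD, 5 spots each). None of the 5 spots passed in differentiated replicate 1, all 5 passed in differentiated replicate 2, and 3 of 5 passed in each proliferating sample. The channels' own detection levels ran from 7.75 to 156.5 units, and the signals followed the same order. Normalised, the log2 values were 6.58 and 7.30 in differentiated and 6.63 and 7.07 in proliferating cells, again overlapping. The log2 ratio was -0.05 on array 1 and 0.23 on array 2, with a mean of 0.09 ± 0.20 (SD, n = 2 arrays).

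**Figure D1:**
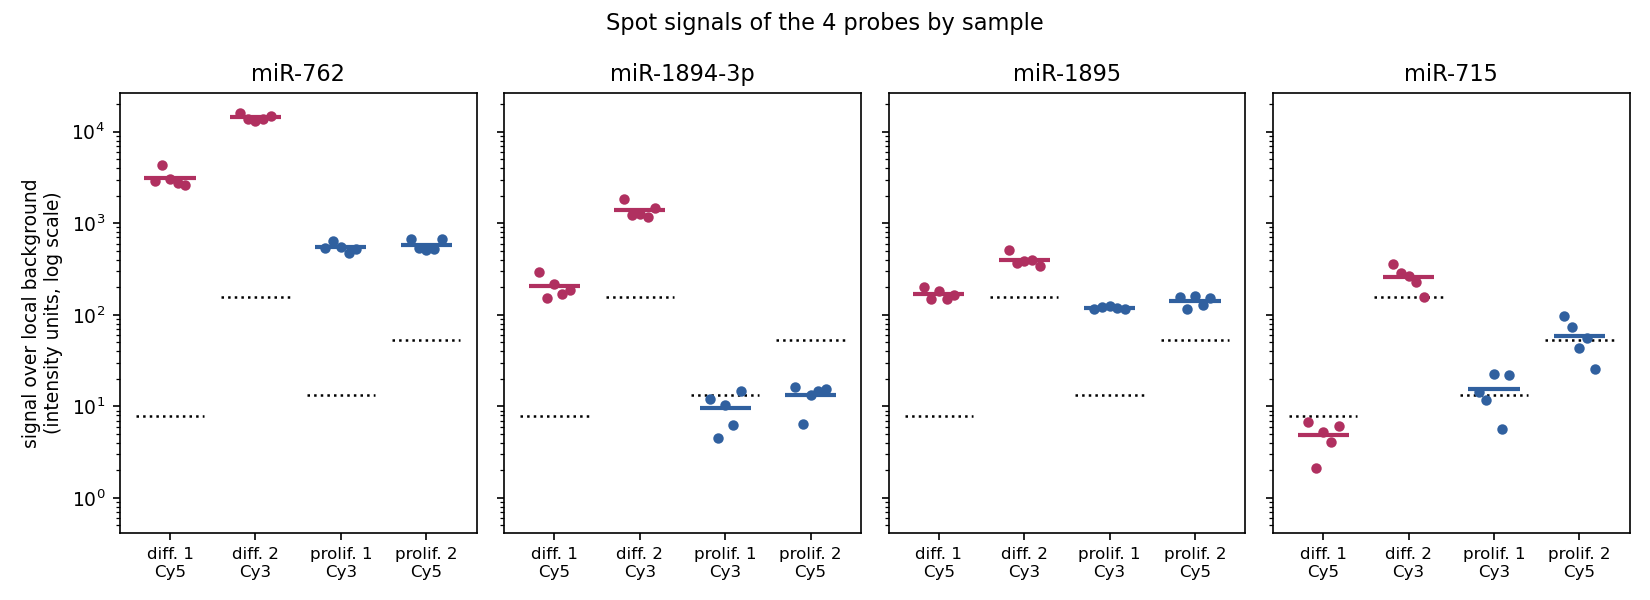
Signal over local background (intensity units, log axis) of the 5 spots of each probe in the differentiated (diff.) and proliferating (prolif.) samples, with the dye below each. Points are spots, solid lines their mean and dotted lines the level needed for detection in that sample. Both differentiated means lie above both proliferating ones for miR-762, miR-1894-3p and, by a narrow margin, miR-1895. Those of miR-715 overlap and lie in the order of the dotted lines. The signals are shown before normalisation, after which miR-1895 overlaps too. How many other probes keep the stages apart was not counted.

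The authors' deposited values of the same samples were also higher in both differentiated samples for miR-762 and miR-1894-3p. Both entries were picked with this contrast known, and the share of other probes with such a gap was not counted. In the authors' deposited table miR-762 had 3018 and 5846 units in differentiated replicates 1 and 2, against 790.3 and 954 in proliferating replicates 1 and 2. In the authors' deposited table miR-1894-3p had 344 and 385 units in differentiated cells, against 24.5 and 30.3 in proliferating cells. miR-1895 had 279.6 and 109 units in differentiated and 203 and 203 units in proliferating cells in the authors' deposited table, so the differentiated samples lay on either side of the proliferating ones. miR-715 had 19.4 and 60.2 units in differentiated and 37.8 and 68.1 units in proliferating cells in the authors' deposited table, lower on both arrays. Its log2 ratio from the authors' deposited table was -0.57 ± 0.55, and that of miR-1895 was -0.22 ± 0.96 (SD, n = 2 arrays each), both of the opposite sign to the values from the scanner tables.

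In the fit over all 172 tested probes, each detected in both differentiated or in both proliferating samples, 30.2% were called at a limma adjusted p under 0.05, 29 higher and 23 lower in the differentiated cells. All 4 entries passed this filter, miR-1894-3p through its differentiated samples and miR-715 through its proliferating samples alone. Of the 4, miR-762 and miR-1894-3p were among the probes called higher and none was called lower. The same 2 were called on the values of the authors' deposited table, where 60.5% of the tested probes were. Since the 4 were picked with this contrast known, nothing is read from these counts. Neither was called by limma when all 700 probes were fitted with no filter on dim ones, and all 4 were called higher with the arrays centred on the spikes, where miR-1895 was at 1.65 and miR-715 at 1.49.

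The further question was how far the ratios go with GC content. Across the 172 tested probes the GC share of the target and the log2 ratio had a Pearson r of 0.03 (Spearman rho -0.13), and this r was -0.02 on array 1 and 0.08 on array 2. Without the 4 entries, over 168 probes, it was -0.01. These are descriptions across probes of the same 2 arrays, and such weak values are no finding. A straight line in GC share, fitted on each array to the tested probes other than these 4, put miR-762 at 0.10 and miR-1894-3p at 0.12. The measured ratio of miR-762 lay 2.54 ± 0.13 above that line (SD, n = 2 arrays). For miR-1894-3p only its bound, 2.20 on the log2 scale, can be set beside the line. miR-1895 lay 0.14 ± 0.87 and miR-715 -0.01 ± 0.17 from it.

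**Figure D2:**
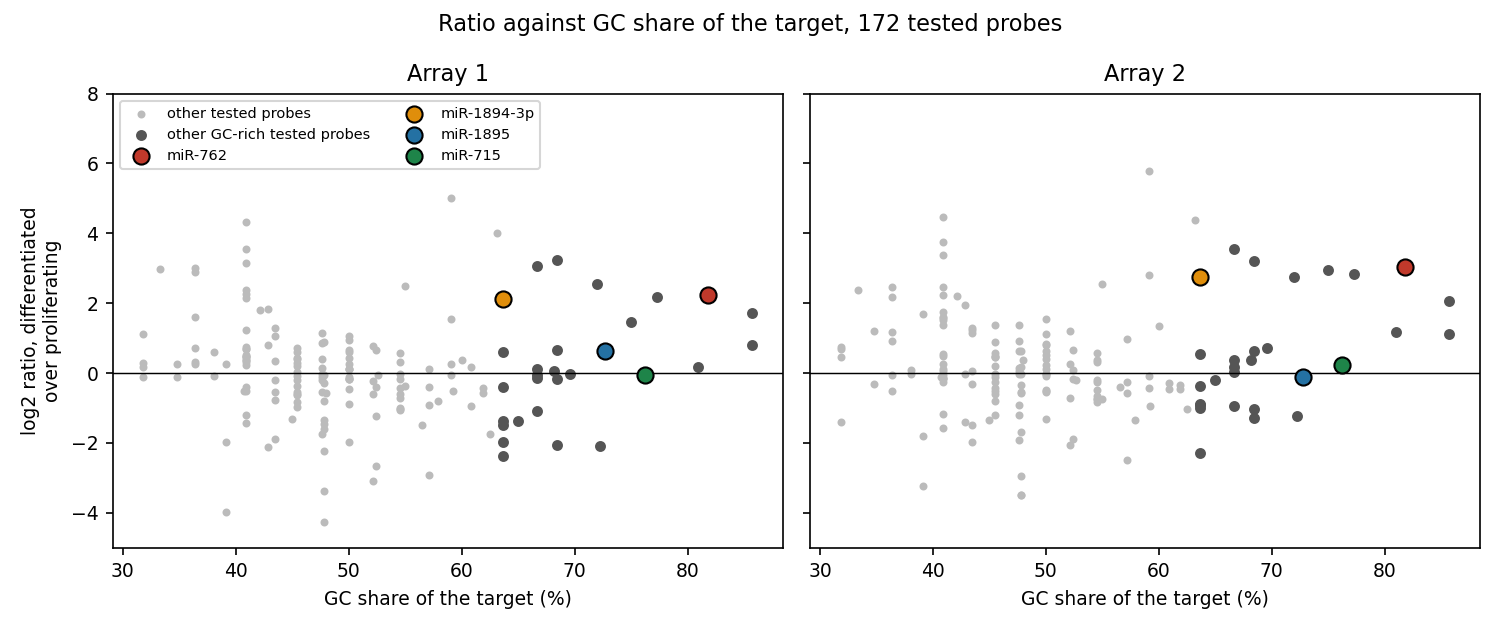
Log2 ratio of differentiated over proliferating cells against the GC share of the target (%) on each array, for the 172 tested probes. Large coloured points are the 4 entries (for miR-1894-3p, undetected in proliferating cells, the fitted ratio), dark points the other GC-rich probes and pale points the rest. miR-762 and miR-1894-3p lie above 2 on both arrays, and miR-1895 and miR-715 near 0. The dark points lie both above and below 0. Of the 7 dark points with at least 70% GC, only miR-1937b lies below 0.

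A total of 84 further probes had a target at least as GC-rich as that of miR-1894-3p, and 25 of them (29.8%) were tested, against 143 of the 612 less GC-rich probes (23.4%). Of the 25, 5 were called higher and 4 lower (36.0%), close to the share over all tested probes, with a median log2 ratio of 0.14 beside 0.11 over all. They went both ways among the brightest. miR-1224 was 9.90-fold higher in the differentiated cells (3.31 ± 0.34). miR-92b, which shares its seed with the proliferation-linked miR-92a, was 5.00-fold lower (-2.32 ± 0.06). miR-1937a and miR-1937b, entries of tRNA-like sequence, were at -1.67 ± 0.54 and -1.67 ± 0.61, and miR-720, linked to a tRNA fragment, at -1.02 ± 0.10, and these 3 were called lower. The others of the brightest 10 were not called, with miR-705 at 2.22 ± 1.05, miR-2145 at 0.65 ± 0.004, miR-709 at -0.59 ± 0.62, miR-484 at -0.87 ± 0.70 and miR-99b at -1.48 ± 0.68 (SD, n = 2 arrays each). Of the 9 calls among the 25, 7 belong to a list of numbered entries, given in full under the other observations, that was drawn up with earlier results of these data known. Of the 16 tested probes outside it, 1 was called higher and 1 lower (12.5%). Nothing is therefore read from these calls about GC-rich targets as such.

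The most GC-rich probes are few and are given one by one. Among tested probes with at least 70% GC, miR-762, miR-1895 and miR-715 stood beside 7 others. In order of GC share miR-2137 (85.7%) was at 1.89 ± 0.23, miR-689 (85.7%) at 0.96 ± 0.22, miR-2133 (77.3%) at 2.51 ± 0.48 and miR-705 (75.0%) at 2.22 ± 1.05 (SD, n = 2 arrays each). miR-714 (81.0%) was at least 1.16-fold higher and miR-2143 (72.0%) at least 5.46-fold higher, neither being detected in proliferating cells, so that both passed the filter only through the stage where they are higher. miR-2133, detected in only 1 proliferating sample, also passed the filter only through the differentiated samples. miR-1937b (72.2%) was the one below 0. Of these 7, 3 were called higher (miR-2133, miR-2137 and miR-2143) and 1 lower (miR-1937b). All 4 belong to that list, being numbered miR-2132 to miR-2146 or named with miR-1937. It was drawn up with earlier results of these data known, and miR-689, miR-705 and miR-714, outside it, were not called. The members of this short list outside the brightest 10 are named after their values were seen, and 7 probes are too few for a trend. Corrected by a loess curve in GC share, with the mean ratio of the other tested probes added back, the ratio of miR-762 was 1.55, that of miR-1895 -0.30 and that of miR-715 -0.66. Corrected by the line on that same scale, they were 2.67, 0.27 and 0.11. How much of the ratio of miR-762 goes with its GC share depends on whether a line or a curve is drawn, and the cause of that difference was not tested.

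**Figure D3:**
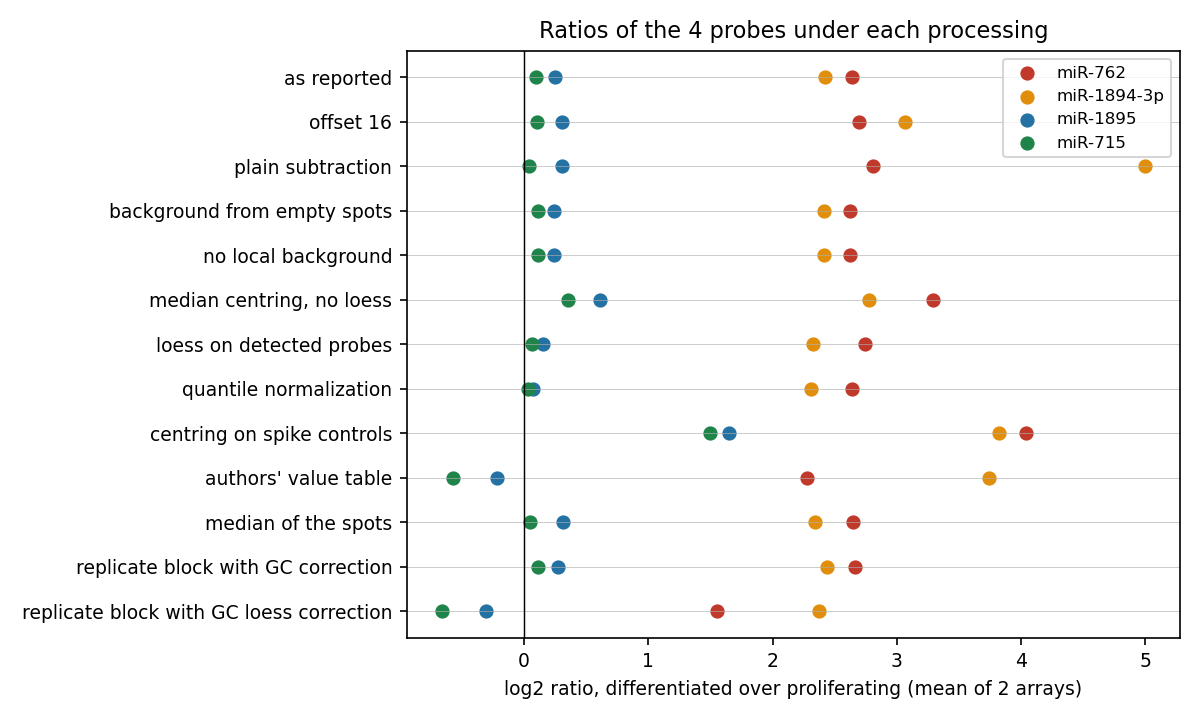
Mean log2 ratio over the 2 arrays, differentiated over proliferating, of each entry under the processing reported and 12 alternatives. miR-762 (1.55 to 4.04) and the fitted ratio of miR-1894-3p (2.31 to 4.99 in the alternatives) stay above 0 in each, while miR-1895 and miR-715 move around 0 apart from the spike centring.

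GC content also went with the faint signal of probes that were detected nowhere. Among the 466 probes detected in no sample, the signal over local background had a Pearson r with GC share of 0.39 and 0.43 in differentiated replicates 1 and 2, against 0.35 and 0.39 in proliferating replicates 1 and 2. The 42 GC-rich ones had a median of 3.01 and 34.6 units in the differentiated samples, against 5.53 and 9.34 units in the proliferating samples. The 424 others had medians of 0.78 and 9.03 units in differentiated, against 2.66 and 3.80 units in proliferating samples. The GC-rich probes thus read higher in all 4 samples, of both stages, though every one of these medians lay under its channel's detection level. Of the 4 entries, miR-715 in differentiated replicate 1 and miR-1894-3p in both proliferating samples also lay under the detection level, and the part that this background has in those values was not tested.

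**Figure D4:**
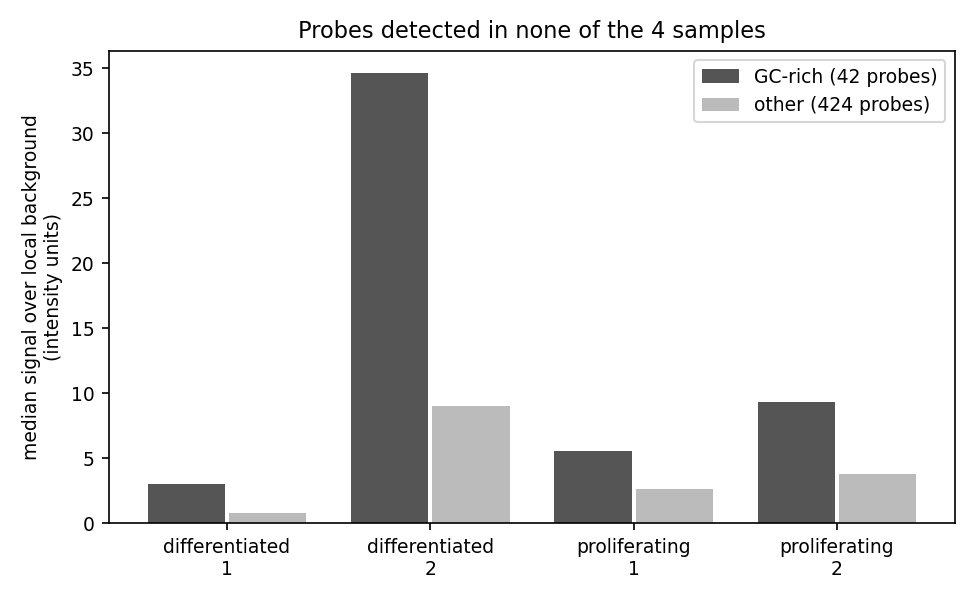
Median signal over local background (intensity units) of the probes detected in none of the 4 samples, for the 42 GC-rich ones (dark bars) and the 424 others (pale bars), by sample. The dark bar is the higher one in each sample, at 3.01, 34.6, 5.53 and 9.34 units.

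Distance was taken in the pair of array ratios, over 2 arrays and the 171 other tested probes. Of the probes detected in each stage, the closest to miR-762 was miR-2133 (0.20 log2 units away). miR-2133 was detected in only 1 proliferating sample, so this distance is inexact. The next by fitted ratio, miR-1894-3p and miR-2143, were undetected in proliferating cells and have no exact distance, and for the same reason none is given from miR-1894-3p. miR-1895 lay closest to let-7c (0.06), miR-483 (0.09) and miR-467f (0.11). miR-715 lay closest to miR-181c (0.08), miR-320 (0.10) and miR-872 (0.14). Of these neighbours, miR-467f, miR-181c and miR-872 were detected in only 1 proliferating sample, and miR-715 itself in only 1 differentiated one. With 2 arrays this is a coarse measure, and many probes lie near 0.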

How the data were processed

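Small RNAs of HC11 cells were tailed, tagged and stained with Cy3 or Cy5, per the labels' protocols. Each deposited scanner table holds, per the file headers, a mean intensity per spot for 1 dye, with neither background correction nor normalization (3500 miRNA and 468 control spots, 180 of them empty). A further table of the authors' processed intensity values was deposited, with medians of 15.1 and 13.9 in differentiated and 13.9 and 13.6 in proliferating replicates 1 and 2. Its columns had an r of 0.985 to 0.997 with the same samples here, and its scaling and centring stay unknown, as does the image software.

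For each spot, the local background was taken from its neighbours up to 7 rows or columns away, as their 20th percentile. A probe was detected where at least 3 of its 5 spots lay over the empty spots' mean by more than 3 of their SDs. Background correction was by normexp (offset 50, which understates ratios of dim probes) and normalization by loess (span 0.3, control spots at weight 0) in limma 3.58.1 under R 4.3.3. Log2 ratios of the 172 tested probes, differentiated over proliferating, went through lmFit and eBayes (1 residual degree of freedom, prior 2.08) with Benjamini-Hochberg adjustment. These steps were tried on simulated arrays with ratios planted only in bright probes and no signal difference between dyes. That trial does not cover dim probes or a dye trend. With 2 samples against 2, an exact permutation test gives no p under 0.333.

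Same-numbered samples were paired as 1 array, since the design text describes dye-swapped 2-colour arrays and they carry opposite dyes. Their deviations from the stage means correlated at 0.343, equal for both numbers by construction. A probe undetected in a whole stage has a bound, set per array after loess and Aquantile. It is set against the higher of the probe's own signal there and the lowest among detected probes. The fold given comes from the mean of these log2 bounds over the arrays. Hairpins were folded with RNAfold 2.7.2. Sequences come from the scanner tables and RefSeq (GRCm38.p6), where 3 of the 4 entries matched. Other probes named were the 10 brightest tested GC-rich ones and the 3 nearest to each entry, with further ones named after their values were seen. The entries, lists and alternatives were chosen with earlier results of these data known. Alternatives covered background, normalization, filters, GC content, pairing, dye, the authors' table and left-out samples.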

Additional observations from a re-analysis of the deposited data

How the results depend on the processing

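The ratio of miR-762 was above 0 in all 20 alternatives. It was at 3.29 with median centring, 4.04 with spike centring and 1.55 with GC loess correction beside the replicate block, and the log2 of the bound of miR-1894-3p was 2.53 with median centring, 2.71 with offset 16, 3.24 from the authors' table, 4.10 with plain subtraction and 2.02 with quantile normalization. Both entries were called in each fit of all 4 samples that tested them, except with no filter on dim probes, where neither was. Since they were picked with this contrast known, nothing is read from these repeated calls. miR-1895 was below 0 in 4 of 20 alternatives, at 1.65 with spike centring and -0.30 with GC loess correction. miR-715 was below 0 in 5 of 20, at 0.36 with median centring, 1.49 with spike centring, -0.57 with the authors' table and -0.66 with GC loess correction, and detected in 0 proliferating samples when 5 SDs or all 5 spots were required. With 1 sample or array left out, miR-762 ran from 2.25 to 3.03, the bound from 2.11 to 2.29, miR-1895 from -0.15 to 0.66 and miR-715 from -0.27 to 0.45. Fits that leave out a sample have no block and assume that the lone sample varies like the other stage. The fit with no replicate block gave the same mean ratios, 2.64 for miR-762, and called 32 higher and 27 lower, and dye as a covariate gave those ratios too. The balanced design fixes this in advance, so these alternatives could not move the ratios.

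Calls over the tested probes, 29 higher and 23 lower, became 47 and 13 with median centring, 46 and 43 with offset 16, 138 and 8 with spike centring, 48 and 37 with plain subtraction, 48 and 56 from the authors' table, 54 and 45 with quantile normalization, 39 and 36 with GC correction beside the replicate block, 21 and 13 with no filter and 18 and 17 among probes detected in all 4 samples. Leaving out a sample gave 26 to 40 higher and 21 to 32 lower. The share of calls that were higher was 55.8%, 78.3% with median centring and 94.5% with spike centring. The median of the tested probes moved by 1.40 with spike centring, 0.41 with median centring, -0.20 with the authors' table and -0.14 with GC loess correction. Spike centring shifts all probes of an array alike and called all 4 entries higher. Distances from that median therefore stayed as they were by construction, at 2.53 for miR-762, 0.14 for miR-1895 and -0.02 for miR-715.

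The other GC-rich probes, 5 called higher and 4 lower with a median of 0.14, had 8 and 1 (0.43) with median centring, 17 and 1 (1.55) with spike centring, 9 and 9 (-0.28) with the authors' table, 7 and 7 with GC correction, 5 and 2 with no filter and 3 and 1 (1.89) at 70% GC or more. Each array alone gave medians of -0.01 and 0.36. The r of GC share with the ratio ran from -0.02 to 0.08. The cause of these moves was not tested, except that the filters and the GC threshold change how many probes are counted. Dim signals limit miR-1894-3p to a bound and leave miR-715 near its detection level.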

Other observations

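Among the other GC-rich tested probes, those whose target holds GGG, as those of miR-762 and miR-1894-3p do, numbered 16. Of these, 5 were called higher and 1 lower (37.5%, near the 30.2% over all tested probes), with a median log2 ratio of 0.66. The 5 called higher include 4 entries of the list described below, which was drawn up with earlier results of these data known. Of the 9 without GGG, 3 were called lower (33.3%) and 6 were not called, with a median of -0.87. Over all tested probes other than the 4 entries, the 52 that hold GGG had 10 called higher and 6 lower and a median of -0.14, beside 0.11 over all tested probes. The letters were chosen after the values were seen, and the difference was not tested. Across the 172 tested probes the ratio had a Pearson r of 0.20 (Spearman rho 0.08) with the G share of the target, of -0.17 (rho -0.17) with its C share and of 0.03 (rho -0.13) with its GC share. Without the 4 entries the r with the G share was 0.16 and the rho 0.05. These weak values are no finding.

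The list of entries numbered miR-2132 to miR-2146, with miR-712, its star form, miR-720, miR-805 and the miR-1937 entries, had 22 probes on the array and 17 tested, of which 8 were called higher and 4 lower. The list was drawn up with earlier results of these data known, so its count restates that choice and nothing is read from it. It held 9 of the 25 other GC-rich tested probes, with 4 called higher and 3 lower. The 16 outside it had 1 called higher and 1 lower and a median of 0.13.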
